A study of Mus musculus with 12 samples.

Results

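The genes described here are those whose response to serum differed between NIH 3T3 fibroblasts treated with Lap2 siRNA and those treated with control siRNA. The quantity is the interaction, that is the serum response with Lap2 siRNA minus the serum response with control siRNA, each as a log2 fold change (log2FC) of 15% over 0.3% FBS. All 12 of the 12 RNA-seq libraries enter it, and 2540 of the 18668 genes tested (13.6%) had an interaction at a Benjamini-Hochberg adjusted p under 0.05 in the quasi-likelihood test of edgeR. NIH 3T3 is an immortalized line derived from mouse embryos. Its cells were transfected either with an siRNA against total Lap2, which targets the anchored and the nucleoplasmic isoforms together, or with AllStars negative control siRNA. Each siRNA was combined with overnight starvation in 0.3% FBS, or with starvation followed by 15% FBS for 45 min, and each of the 4 groups has 3 libraries. A single siRNA sequence and a single cell line were used. The labels number the replicates without saying whether they came from separate cultures, so p-values measure the spread between these libraries, which may be technical.

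Serum is a strong stimulus for starved fibroblasts and switches on immediate-early genes within minutes, before new protein is made. Many of them are driven by serum response factor (SRF), which binds CArG boxes and works with TCF factors downstream of ERK or with MRTF-A and MRTF-B, which sense the pool of monomeric actin. Lap2 isoforms, encoded by Tmpo, are LEM-domain proteins of the inner nuclear membrane and nucleoplasm that bind lamins and chromatin. The comparison addresses whether the serum-responsive transcriptome depends on Lap2.

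Total counts ranged from 18026298 to 26265253 per library. Tmpo (ENSMUSG00000019961) lies on the minus strand of chromosome 10 from 91147571 to 91181315 of mm10. It had 2775, 2805 and 2885 normalized counts in starved and 3264, 3243 and 3019 in stimulated control siRNA cells, against 982, 1175 and 1093 and then 767, 745 and 607 with Lap2 siRNA. Every Lap2 siRNA library was below every control library, and the level left was 38.4% of control in 0.3% FBS and 22.2% in 15% FBS. Tmpo mRNA relative to control therefore itself differed between the serum conditions (interaction log2FC -0.79, standard error 0.11, edgeR adjusted p = 3e-06). These counts do not show Lap2 protein, and siRNA efficacy and other changes in Tmpo mRNA cannot be told apart. The part of the Tmpo difference in the other genes' interactions was not tested. Gm26765, a gene on the opposite strand, overlaps Tmpo, and the strand setting of the counting is not given in the sources used here. Of 7 fibroblast markers 6 were present and Fap was below 1 CPM; their summed level was 28300 to 33000 CPM with control siRNA and 18100 to 23100 CPM with Lap2 siRNA. Markers of epithelial, endothelial, macrophage, skeletal muscle, adipocyte and neuronal cells summed to at most 13 CPM per type. The part of the lower fibroblast marker sum in the results was not tested, and in bulk RNA fewer cells of a type and less RNA per cell cannot be told apart.

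CArG boxes stood within 250 bases before to 50 bases after an annotated RefSeq start in 22 of the genes whose induction was weaker with Lap2 siRNA. The sites of those that belong to the lists of immediate-early transcription factors and of actin cytoskeleton and focal adhesion genes are shown, because SRF binds this element. They are given 5′ to 3′ on the strand of the gene, with the CArG box in capitals, from RefSeq on GRCm38.p6.
Acta1, chr8:123894829-123894858, minus strand: tgcccgacacCCAAATATGGcttgggaagg
Egr2, chr10:67537484-67537513, plus strand: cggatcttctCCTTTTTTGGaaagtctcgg
Egr2, chr10:67537787-67537816, plus strand: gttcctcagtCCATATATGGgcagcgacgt
Fhl2, chr1:43163973-43164002, minus strand: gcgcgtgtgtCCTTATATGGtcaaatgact
Fhl2, chr1:43196838-43196867, minus strand: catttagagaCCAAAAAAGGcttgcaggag
Filip1l, chr16:57549170-57549199, plus strand: atgccgcgcgCCTTATAAGGctgagcggtg
Srf, chr17:46556205-46556234, minus strand: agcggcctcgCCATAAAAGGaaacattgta
Srf, chr17:46556225-46556254, minus strand: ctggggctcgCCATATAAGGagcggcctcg
Vcl, chr14:20929161-20929190, plus strand: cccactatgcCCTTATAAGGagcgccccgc
A CArG box, read on both strands, was found in 535 of all 32851 such promoter windows (1.63%). That share is per window and includes windows of genes not tested, whereas the 22 above are genes, so the figures are not comparable. The windows printed for Srf overlap. Boxes were also found in windows of Actg1, Cnn2, Fhl1, Lima1 and Myl9, which are in the same actin list and whose interaction was not called. No share is compared between classes of genes, because windows could be matched to only 77.9% of the protein-coding genes with weaker induction and 78.1% of those with stronger induction, under the 80% required for such a check. A match describes the letters in this window and is not a binding site, and a gene without a match may hold the letters elsewhere.

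The serum response was lower with Lap2 siRNA for 1216 genes (6.51% of those tested) and higher for 1324 (7.09%). The median interaction over all tested genes was a log2FC of 0.02. In the contrasts the interaction is made of, serum changed 29.5% of tested genes with control siRNA and 33.2% with Lap2 siRNA, and Lap2 siRNA changed 36.5% in 0.3% FBS and 23.4% in 15% FBS. Most differences were modest: 439 of the 2540 genes differed by more than 1 on the log2 scale, 218 of them lower and 221 higher. Of all 18668 tested genes, called or not, 3534 (18.9%) differed by more than 1, so this count does not mark out the called genes. Kinds of dependence were told apart from the calls on each response. Induction was weaker with Lap2 siRNA for 579 genes, induction was stronger for 743, repression was weaker for 427 and repression was stronger for 466. In 260 genes both responses were called and had opposite signs, and 65 genes had a called interaction without a called response to serum. How genes divide among these kinds depended on the scaling, since scaling to total counts lowers the median serum response of all tested genes by 0.21 with control siRNA and by 0.23 with Lap2 siRNA. It left 307 genes with stronger induction and gave 653 with weaker repression and 785 with stronger repression, while 2501 genes had a called interaction.

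**Figure D1:**
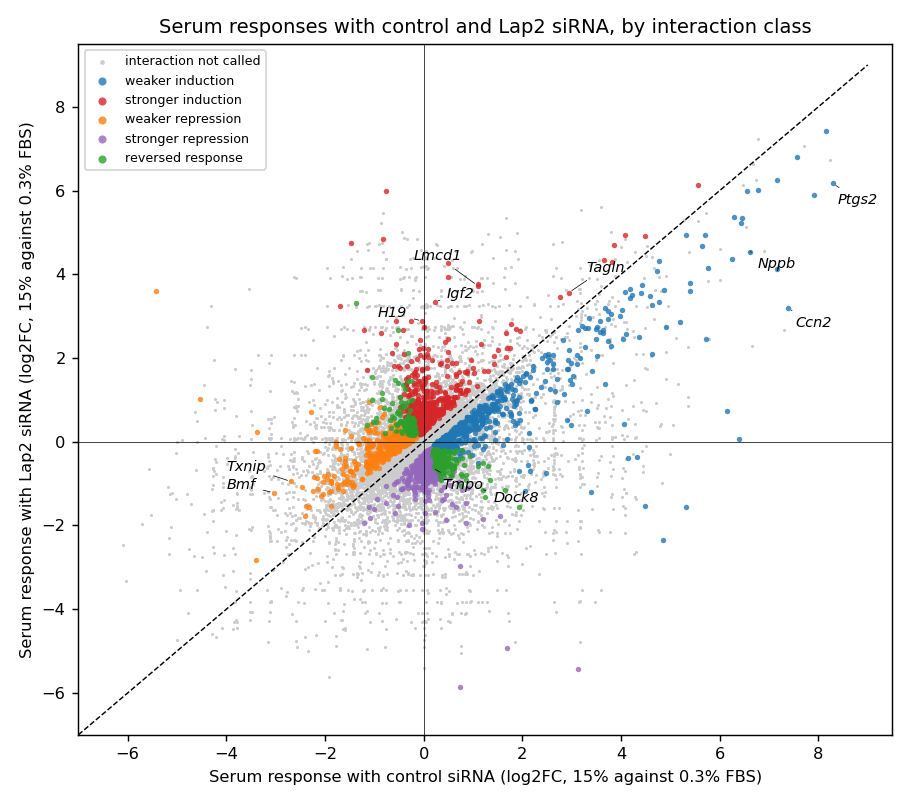
Serum response (log2FC of 15% over 0.3% FBS) with control siRNA on the x axis and with Lap2 siRNA on the y axis for the 18668 tested genes; each point is a gene, coloured by kind of dependence, and the dashed line marks equal responses. Ccn2, Ptgs2 and Nppb lie at high induction under the line, Igf2 and H19 near 0 on the x axis and high on the y axis, and Txnip and Bmf at strong repression above the line.

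Genes with weaker induction included CCN matricellular genes, ERK phosphatases, AP-1 and EGR factors and actin genes. Their median serum response was a log2FC of 0.91 with control siRNA and 0.30 with Lap2 siRNA. The difference lay more often in the starved cells: 422 of the 579 (72.9%) were called higher with Lap2 siRNA in 0.3% FBS, where 17.8% of all genes were, and 220 (38%) were called lower in 15% FBS, where 12.1% of all genes were. The interaction is made of these same comparisons and shares their libraries, so these shares describe where the difference lies and do not test it.

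Of the genes averaging 100 normalized counts or more, Ccn2 weakened most (ENSMUSG00000019997, plus strand of chromosome 10, 24595442 to 24598683). It encodes the matricellular protein CTGF. With control siRNA it had 501, 306 and 372 normalized counts in 0.3% FBS and 63462, 64766 and 67433 in 15% FBS, and with Lap2 siRNA 2010, 2011 and 1888 and then 18889, 16876 and 18153. All Lap2 siRNA libraries were thus above control in starved cells and below control in stimulated cells, and the response fell from 166-fold to 9.12-fold (interaction log2FC -4.19, standard error 0.13, edgeR adjusted p = 1.7e-21). Gm15270 overlaps Ccn2 on the opposite strand. Ccn1, which encodes the related CYR61, had 382, 250 and 299 normalized counts in starved and 71221, 74622 and 76002 in stimulated control siRNA cells, against 857, 962 and 885 and 58334, 53142 and 49113 with Lap2 siRNA. Its response was 239-fold with control and 59.4-fold with Lap2 siRNA (interaction log2FC -2.01, standard error 0.13, edgeR adjusted p = 3.8e-13), again with higher starved and lower stimulated libraries. Ankrd1, a cardiac ankyrin repeat protein gene that is widely used as a YAP target, changed in the same pattern, from 203 ± 32 to 1454 ± 113 normalized counts (SD, n = 3) with control and from 317 ± 20.2 to 703 ± 56.9 with Lap2 siRNA (interaction log2FC -1.69, edgeR adjusted p = 1.4e-10).

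Ptgs2 (COX-2), which makes prostaglandin H2, had 317, 280 and 302 normalized counts in starved and 94315, 94216 and 93475 in stimulated control siRNA cells. With Lap2 siRNA it had 1405, 1381 and 1407 in 0.3% FBS and 98387, 94338 and 109308 in 15% FBS. Neither pair of groups overlapped, although the lowest stimulated Lap2 siRNA library (94338) was barely above the highest control one (94315). The response fell from 314-fold to 72-fold (interaction log2FC -2.12, standard error 0.09, edgeR adjusted p = 5.2e-17). In 15% FBS the siRNAs differed by a log2FC of 0.10 that was not called (edgeR adjusted p = 0.27). Nppb, the precursor gene of brain natriuretic peptide, differed after serum instead. It had 6.87, 13 and 5.39 normalized counts in starved and 811, 813 and 980 in stimulated control siRNA cells, against 13.8, 3.12 and 3.09 and 187, 130 and 176 with Lap2 siRNA (interaction log2FC -2.08, standard error 0.56, edgeR adjusted p = 0.0096). Its starved groups overlapped, and all stimulated libraries with Lap2 siRNA were below those with control. The call rested on 1 library: without Lap2 siRNA replicate 1 in 0.3% FBS the interaction was -0.98 (edgeR adjusted p = 0.46), while the difference in 15% FBS was a log2FC of -2.4 (edgeR adjusted p = 1.5e-14).

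The other genes with the largest weakening included Fam110c (interaction log2FC -3.27), Dusp4 (-2.52), the activity-regulated transcription factor gene Npas4 (-1.87), Dusp6 (-1.86) and the AP-1 gene Fosl1 (-1.81). Each was higher with Lap2 siRNA in 0.3% FBS, by 2.62-fold for Dusp6 to 17.9-fold for Fam110c. Fam110c rested on few counts in the starved control libraries, 1.96, 3.47 and 4.31 normalized counts. In stimulated cells 1 Lap2 siRNA library stood apart from the others for Fam110c (215, 221 and 546) and Dusp4 (639, 637 and 1264). Ccdc85b overlaps Fosl1 on the opposite strand.

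A smaller fold did not always mean that fewer transcripts were added. The increment, the mean in 15% FBS minus the mean in 0.3% FBS in normalized counts, was positive with both siRNAs for 414 genes with weaker induction. Its median with Lap2 siRNA was 49.1% of that with control siRNA, and it was larger with Lap2 siRNA for 20 of the 414. Over the 5889 tested genes with both increments positive the median was 98.6%, and 2903 had a larger increment with Lap2 siRNA. The 414 were selected for a smaller fold in these same libraries, so a smaller increment is partly built in. For Ptgs2 the increment was 93702 ± 265 (standard error) with control and 99280 ± 4471 with Lap2 siRNA, 106% of control. Ier3, an early response gene, had an increment of 103% of control beside a response of 21.3-fold with control and 11.8-fold with Lap2 siRNA. For Nppb the increment was 18.4% of control, for Ccn2 24.7%, for Dusp6 62.6% and for Ccn1 71.5%, so these genes gained fewer transcripts as well. Tagln went the other way, with a larger fold with Lap2 siRNA and an increment of 44.3% of control. Increments carry no test here.

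**Figure D2:**
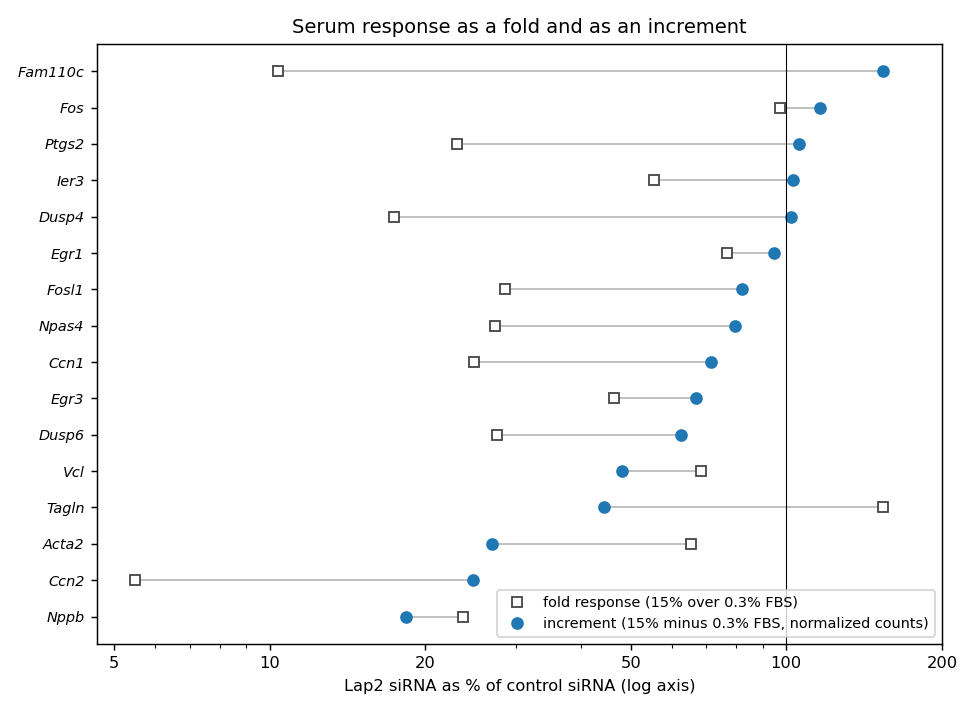
Serum response with Lap2 siRNA as a percentage of that with control siRNA (log axis), as a fold (open squares) and as an increment in normalized counts (filled circles), from group means of 3 libraries; the vertical line marks 100%. For Ptgs2, Ier3 and Dusp4 the fold lies well under the line and the increment at it, while for Nppb and Ccn2 both lie far under it. The Dusp4 increment rests partly on a stimulated Lap2 siRNA library that stood apart from the others.

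Immediate-early transcription factor genes leaned towards weaker induction. Of the 26 on the list, 13 had a lower and 4 a higher response, beside 6.51% and 7.09% of all genes, and the median interaction was -0.46. With control siRNA 25 of the 26 were called higher by serum. Of all 2915 genes so called, 721 had a lower and 134 a higher response. All 13 belonged to the weaker induction class. They included the zinc finger factors Egr1, Egr2 and Egr3, the bZIP genes Atf3, Maff and Mafk, the nuclear receptor gene Nr4a1, and Myc and Srf. Egr3 had 171, 137 and 126 normalized counts in starved and 13567, 13134 and 11592 in stimulated control siRNA cells, against 182, 232 and 225 and 9056, 8859 and 8023 with Lap2 siRNA. All its starved Lap2 siRNA libraries were above control and all its stimulated ones below (interaction log2FC -1.11, standard error 0.14, edgeR adjusted p = 4.9e-07). Srf differed only after stimulation, with 1531, 1425 and 1421 against 1435, 1518 and 1514 in 0.3% FBS and 19940, 19096 and 19651 against 13142, 12665 and 13066 in 15% FBS (interaction log2FC -0.62, standard error 0.08, edgeR adjusted p = 2.2e-06). Its 2 CArG boxes are among those printed above.

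Within the same list neighbouring genes differed. Fos, the partner of JUN proteins in AP-1, rose 102-fold with control and 99.3-fold with Lap2 siRNA and its interaction was not called (log2FC -0.04, standard error 0.21, edgeR adjusted p = 0.94). Egr1 was called with a small difference, 39.8-fold against 30.5-fold (interaction log2FC -0.38, edgeR adjusted p = 0.026), and its groups overlapped in both conditions. The call of Egr1 was lost in 6 of the 12 fits that leave out 1 library (edgeR adjusted p from 0.056 to 0.088), namely Lap2 siRNA replicate 3 in either condition and control replicates 2 and 3 in 0.3% FBS and 1 and 2 in 15% FBS. Junb, Jund, Klf4 and Klf10 responded more with Lap2 siRNA. Junb, whose protein can oppose JUN, had 1772, 1795 and 1947 normalized counts in starved and 31819, 31719 and 29305 in stimulated control siRNA cells, and 1294, 1228 and 1195 and 37468, 37872 and 38434 with Lap2 siRNA. It was lower before and higher after serum in every Lap2 siRNA library (interaction log2FC 0.86, standard error 0.09, edgeR adjusted p = 8.4e-09). Prdx2 overlaps Junb on the opposite strand.

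ERK feedback genes are the dual-specificity phosphatases and the Sprouty and Spred inhibitors that serum induces and that limit ERK signalling. Of 15 members 9 had a lower response, beside 6.51% of all genes, and 0 a higher one, beside 7.09%. The median interaction was -0.61. All 15 were called higher by serum with control siRNA. Of all 2915 genes so called, 721 had a lower and 134 a higher response. Dusp6, an ERK-specific phosphatase, had 355, 280 and 291 normalized counts in starved and 6493, 6514 and 6129 in stimulated control siRNA cells, against 793, 816 and 820 and 4566, 4493 and 4767 with Lap2 siRNA. Neither pair of groups overlapped (interaction log2FC -1.86, standard error 0.10, edgeR adjusted p = 2.7e-14). Dusp5, a nuclear ERK phosphatase, differed in starved cells (238 ± 21.6 against 687 ± 44.1 normalized counts, SD, n = 3) and by less after serum (13010 ± 490 against 12292 ± 1036, interaction log2FC -1.61, edgeR adjusted p = 2.5e-12). Dusp4, Dusp1, Dusp14, Spry4, Spred1 and Errfi1, which inhibits EGF receptor, were also in the weaker induction class, and Spred2 reversed. Spry1, with an interaction log2FC of -0.02, and Spry2, with -0.19, were not called.

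Actin cytoskeleton and focal adhesion genes include many MRTF-SRF targets. Of 42, 21 had a lower response and 3 a higher one, beside 6.51% and 7.09% of all genes (median interaction -0.29). With control siRNA 40 of the 42 were called higher by serum. Of all 2915 genes so called, 721 had a lower and 134 a higher response. All 21 were in the weaker induction class. Leaving out 1 library gave 16 to 25 lower. Calls were lost in 6 of 12 fits for Dstn and Wdr1, 5 for Tpm4, 4 for Tpm2 and 2 for Tagln2. Most of the list was below control after stimulation: 39 of the 42 were called lower with Lap2 siRNA in 15% FBS, beside 12.1% of all genes. In 0.3% FBS 17 were called lower, beside 18.6% of all genes, and 9 higher, beside 17.8%. Scaling to total counts gave 32 lower in 15% FBS. Acta2, smooth muscle actin, had 8181, 6473 and 6077 normalized counts in starved and 41389, 40296 and 40924 in stimulated control siRNA cells, against 3331, 2977 and 3217 and 12398, 12419 and 12100 with Lap2 siRNA. It was lower in every Lap2 siRNA library in both conditions, and more so after serum (interaction log2FC -0.61, standard error 0.11, edgeR adjusted p = 8.1e-05).

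Vcl, which encodes vinculin of focal adhesions, had 6331, 6441 and 5832 normalized counts in starved and 17884, 17184 and 22146 in stimulated control siRNA cells, against 5045, 5970 and 5781 and 10688, 11456 and 13225 with Lap2 siRNA (interaction log2FC -0.55, standard error 0.12, edgeR adjusted p = 0.0011). The starved groups overlapped and the stimulated ones did not. Ap3m1 overlaps Vcl on the opposite strand. Filip1l (interaction log2FC -1.18), the LIM protein gene Fhl2 (-1.24), the integrin gene Itga5 (-0.98) and Palld, which encodes the actin-bundling palladin (-0.75), weakened more than Actb (-0.29). Acta1, skeletal muscle actin, weakened most on the list (-3.04, edgeR adjusted p = 0.0089) but rested on starved levels of at most 6.43 normalized counts in any library, and was not called without Lap2 siRNA replicate 1 in 0.3% FBS (-2.62, edgeR adjusted p = 0.068). CArG boxes of Acta1, Fhl2, Filip1l and Vcl are printed above.

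The 3 members that responded more with Lap2 siRNA were Tagln, Cnn3 and Svil, of which Cnn3 lost its call in 10 of the 12 fits that leave out 1 library. Tagln, the actin-binding transgelin gene, had 1777, 1437 and 1485 normalized counts in starved and 11605, 11583 and 12933 in stimulated control siRNA cells, against 483, 406 and 398 and 5227, 4852 and 5116 with Lap2 siRNA. It was below control in all Lap2 siRNA libraries, and the gap was wider in starved cells, which gave a larger fold (11.8 against 7.69; interaction log2FC 0.62, standard error 0.11, edgeR adjusted p = 0.00015). Gm48529 and Pcsk7 overlap Tagln on the opposite strand. Tpm1, Zyx, Lmod1 and Itgb1 had interactions between -0.03 and 0.08 that were not called, although Tpm1 was lower with Lap2 siRNA by a log2FC of -0.86 in 0.3% FBS and -0.82 in 15% FBS.

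**Figure D3:**
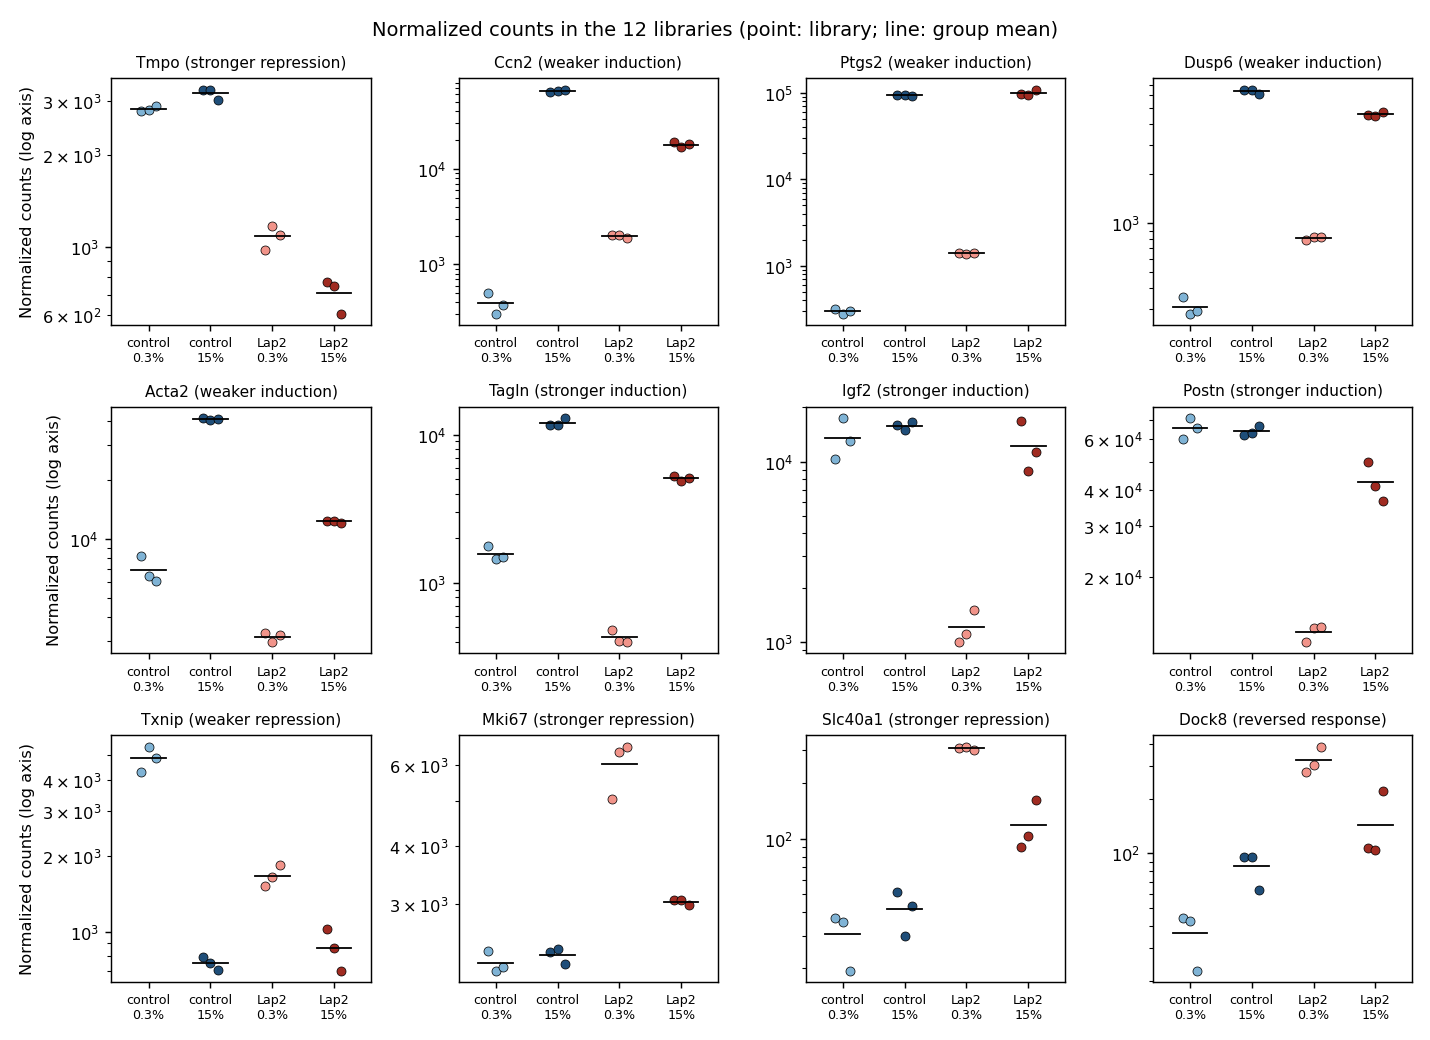
Normalized counts (log axis) in the 12 libraries for 12 genes, with control or Lap2 siRNA in 0.3% or 15% FBS on the x axis; points are libraries and lines group means of 3 libraries. Ccn2, Ptgs2 and Dusp6 start higher with Lap2 siRNA, Igf2, Postn and Txnip are low in the starved Lap2 siRNA group, and Mki67, Slc40a1 and Dock8 are high in it.

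Other signalling lists were mixed, and their counts are set beside 6.51% of all genes with a lower and 7.09% with a higher response. Most tested members of each were called higher by serum with control siRNA. Of all 2915 genes so called, 721 had a lower and 134 a higher response. Among YAP and TEAD targets, 5 of the 19 tested had a lower response (Ccn1, Ccn2, Ankrd1, Gadd45a and Nuak2) and 1 a higher one (Ccdc80), with a median interaction of -0.11; without Lap2 siRNA replicate 1 in 0.3% FBS, 8 were lower and the median was -0.2, and without Lap2 siRNA replicate 3 in 15% FBS it was -0.05. Axl (interaction log2FC -0.03) and Amotl2 (-0.11), which are often used as YAP targets too, were not called. Growth factor ligands had 7 lower (the EGF-family genes Ereg and Btc, Fgf7, Hgf, Bdnf, Inhba and Tgfb1) and 3 higher (Vegfa, Fgf2 and Nrg1) of 20 tested. Ereg weakened most among the abundant ligands, from 135 ± 13.1 to 5698 ± 226 normalized counts (SD, n = 3) with control and from 354 ± 4.04 to 4881 ± 574 with Lap2 siRNA (interaction log2FC -1.61, edgeR adjusted p = 3.3e-11). Of 12 cAMP-responsive and activity-regulated genes 5 were lower (Npas4, Arc, Nfil3, Per2 and Rgs2) and 2 higher (Crem and Sik1), while the clock gene Per1 was not called (interaction log2FC 0.03, standard error 0.09, edgeR adjusted p = 0.88). The higher count was 1 without Lap2 siRNA replicate 2 or 3 in 0.3% FBS, Lap2 siRNA replicate 1 or 2 in 15% FBS, control replicate 2 or 3 in 0.3% FBS, or control replicate 1 in 15% FBS. Leaving out single libraries ended the call of Fgf2 in 7 of 12 fits, of Crem in 7 and of Per2 in 5.

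ID, BMP, TGF-beta and NOTCH feedback genes had 7 lower responses and 3 higher ones of 15 tested, beside 6.51% and 7.09% of all genes. The median interaction was -0.44, and it lay between -0.22 and -0.28 without replicate 2 of any of the 4 groups and at -0.29 with a replicate block. The lower ones included Id1, Id2 and Id3, which block bHLH factors, the inhibitory Smad7, the BMP antagonist Grem1 and Skil. Id1 had 542 ± 28.5 normalized counts in starved control and 1092 ± 104 in starved Lap2 siRNA cells (SD, n = 3), and 4659 ± 162 and 4543 ± 83.9 after serum. Its interaction was a log2FC of -1.05 (edgeR adjusted p = 2.3e-09), with the difference in starved cells. Id4, Smad6 and Ski responded more. The call of Ski was lost in 2 of the 12 fits that leave out 1 library and that of Grem1 in 1. Smad6 differed after serum, with 223 ± 11.3 and 278 ± 21.9 with control and 265 ± 22.2 and 611 ± 42 with Lap2 siRNA (interaction log2FC 0.88, edgeR adjusted p = 4.5e-05).

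Cytokine and NF-kappaB feedback genes had 5 lower and 5 higher responses of 21 tested, beside 6.51% and 7.09% of all genes. The lower ones were Cxcl1, Ccl2, Lif, Tnfaip3 and Ptgs2, and the higher ones Nfkbiz, Relb, Vcam1, Cxcl12 and Bcl3. The higher count was 3 without Lap2 siRNA replicate 2 in 15% FBS, control replicate 1 or 3 in 0.3% FBS, or control replicate 2 in 15% FBS. With single libraries left out, calls were lost for Relb in 8 of 12 fits, Vcam1 in 5 and Lif in 4. Tnfaip3, which encodes the NF-kappaB inhibitor A20, rose from 83.2 ± 16.1 to 400 ± 65.1 normalized counts (SD, n = 3) with control and from 88.8 ± 8.74 to 153 ± 20.7 with Lap2 siRNA (interaction log2FC -1.48, edgeR adjusted p = 1e-05). Among 9 mRNA decay and antiproliferative genes 2 were lower and 3 higher, beside 6.51% and 7.09% of all genes. The lower were Zfp36 and Zc3h12a, and the higher Zfp36l1, Btg2 and Tob1. The lower count was 4 without Lap2 siRNA replicate 1 in 0.3% FBS, and 1 without control replicate 3 in 0.3% FBS or control replicate 2 in 15% FBS. Zfp36l1, which binds AU-rich elements, rose from 6812 ± 440 to 11120 ± 902 with control and from 5399 ± 498 to 17117 ± 2052 with Lap2 siRNA (interaction log2FC 0.96, edgeR adjusted p = 1.2e-07).

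**Figure D4:**
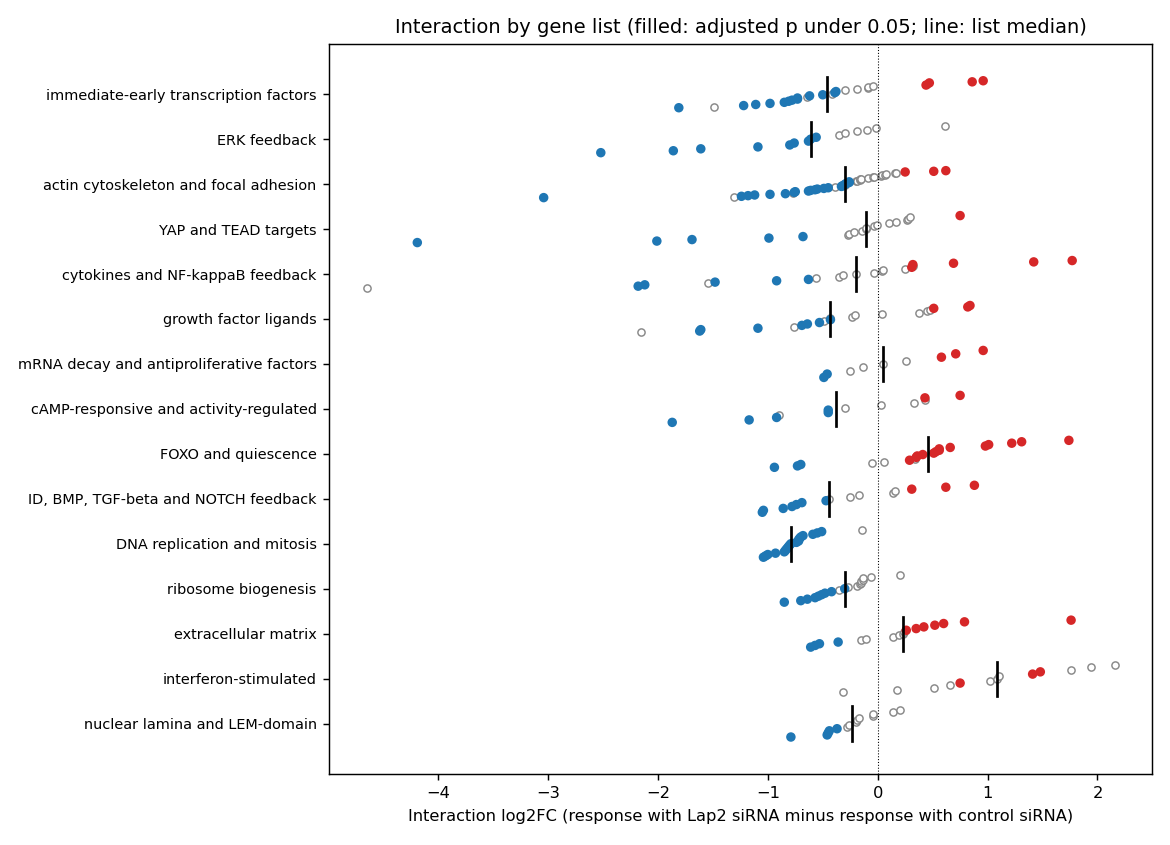
Interaction log2FC (x axis) of the tested members of 15 gene lists; each point is a gene, filled where the adjusted p was under 0.05, and the black line is the list median. Replication and mitosis genes and ERK feedback genes lie mostly left of 0, FOXO and quiescence genes mostly right of it.

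Genes with stronger induction were in most cases low in starved Lap2 siRNA cells. Their median serum response was a log2FC of -0.01 with control siRNA and 0.58 with Lap2 siRNA. With control siRNA 134 of the 743 were called higher by serum, where 15.6% of all genes were, so most were not called as induced there. In 0.3% FBS 663 (89.2%) were called lower with Lap2 siRNA, where 18.6% of all genes were, and in 15% FBS 312 (42%) were, where 12.1% of all genes were. Of 8 genes with the largest strengthening, 4 belong to imprinted loci: Igf2, Igf2os, H19 and Mest.

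Igf2, the fetal growth factor gene (ENSMUSG00000048583, minus strand of chromosome 7, 142650766 to 142666816), had 10367, 17413 and 12954 normalized counts in starved and 15851, 14878 and 16604 in stimulated control siRNA cells. With Lap2 siRNA it had 1001, 1116 and 1507 in 0.3% FBS and 16693, 8815 and 11266 in 15% FBS. The starved Lap2 siRNA libraries were below the other 9, which overlapped across groups, and the response was 1.16-fold with control and 10.2-fold with Lap2 siRNA (interaction log2FC 3.13, standard error 0.22, edgeR adjusted p = 3.3e-12). H19, the neighbouring noncoding RNA gene, had 16362, 24005 and 20436 and then 19890, 20135 and 19639 with control, and 1027, 1069 and 1290 and then 10420, 6361 and 8203 with Lap2 siRNA (interaction log2FC 2.91, standard error 0.17, edgeR adjusted p = 3.3e-14). For H19 the stimulated Lap2 siRNA libraries also stayed below every control library. Igf2 and Igf2os overlap on opposite strands, as do H19 and 2 small genes, Gm27483 and Gm27786, and Mest and Copg2, so that reads of the pairs may not be separated.

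Lmcd1, a LIM-domain gene, did rise with control siRNA, from 255, 262 and 269 to 583, 543 and 541 normalized counts, and rose from 39.5, 30.2 and 27.8 to 412, 457 and 438 with Lap2 siRNA (interaction log2FC 2.64, standard error 0.17, edgeR adjusted p = 1.4e-12). It was below control in every Lap2 siRNA library, with the wider gap in starved cells. The secreted lipocalin gene Apod (interaction log2FC 2.29), Clec3b, which encodes tetranectin (2.15), and the microfibril gene Mfap5 (2.13) were at 0.0948, 0.142 and 0.137 times the control level in 0.3% FBS. Mest and Mfap5 were classed as reversed when libraries were scaled to total counts or upper quartiles, because their response with control siRNA was then called lower.

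Extracellular matrix genes had 7 higher and 4 lower responses of 17 tested, beside 7.09% and 6.51% of all genes. The median interaction was 0.23, and 0.15 without Lap2 siRNA replicate 1 in 0.3% FBS. Postn, which encodes periostin, had 60323, 71028 and 65544 normalized counts in starved and 62325, 62957 and 66550 in stimulated control siRNA cells, against 11958, 13373 and 13497 and 49977, 41534 and 36736 with Lap2 siRNA. The starved Lap2 siRNA libraries were lowest and the stimulated ones lay between them and control (interaction log2FC 1.76, standard error 0.11, edgeR adjusted p = 4.3e-13). Col3a1 followed with 67596 ± 3406 and 112393 ± 13753 (SD, n = 3) with Lap2 siRNA and 214403 ± 6653 and 205956 ± 13892 with control (interaction log2FC 0.79). Col1a1 (0.19) and Col1a2 (0.14), the chains of type I collagen, were not called. Thbs1, an early serum target, weakened (-0.57) from 93.9-fold to 63.1-fold.

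For some stronger inductions the difference lay in stimulated cells instead. Ddit4, which restrains mTORC1, had 1287 ± 33.7 and 1196 ± 47.8 normalized counts (SD, n = 3) with control and 1419 ± 60 and 3074 ± 286 with Lap2 siRNA (interaction log2FC 1.22, edgeR adjusted p = 9.2e-11). In 0.3% FBS its difference was not called (log2FC 0.14, edgeR adjusted p = 0.13).

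Genes whose repression by serum was weaker included FOXO targets. In the weaker repression class the median serum response was a log2FC of -0.62 with control and -0.04 with Lap2 siRNA, and 278 of the 427 (65.1%) were called lower with Lap2 siRNA in 0.3% FBS, where 18.6% of all genes were. Txnip, which restrains glucose uptake, had 4277, 5408 and 4878 normalized counts in starved and 791, 752 and 705 in stimulated control siRNA cells. With Lap2 siRNA it had 1521, 1645 and 1832 and then 1027, 862 and 701. The starved groups did not overlap and the stimulated ones did, with a fall to 0.154 of the starved level with control and to 0.517 with Lap2 siRNA (interaction log2FC 1.74, standard error 0.14, edgeR adjusted p = 4.2e-11). Gm15441 overlaps Txnip on the opposite strand. Bmf, a pro-apoptotic BH3-only gene, had 960, 1106 and 997 and then 138, 128 and 105 with control and 493, 567 and 543 and then 254, 262 and 173 with Lap2 siRNA (interaction log2FC 1.82, standard error 0.17, edgeR adjusted p = 2.6e-09). It was lower before and higher after serum in every Lap2 siRNA library. Prokr1, a prokineticin receptor gene (interaction log2FC 2.00), and Mamstr, of the myocardin family (1.61), were repressed with control siRNA and had no called response with Lap2 siRNA.

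Of 20 FOXO targets and genes of quiescence 14 had a higher response and 3 a lower one, beside 7.09% and 6.51% of all genes. The median interaction was 0.46. Of the 14, 10 were weaker repression: Foxo1, Foxo3 and Foxo4, the CDK inhibitor gene Cdkn1b (p27), Pik3ip1, Sesn1, Sesn3, Txnip, Arrdc4 and Gas1. Without control replicate 2 in 0.3% FBS 9 were higher. Single libraries ended the call of Cdkn1b in 8 of 12 fits, Gas1 in 5, Foxo3 and Sesn3 in 2 each and Foxo1 in 1. Pik3ip1, an inhibitor of PI3 kinase, fell from 1148 ± 88.8 to 259 ± 34 normalized counts (SD, n = 3) with control and from 922 ± 45.2 to 422 ± 74.9 with Lap2 siRNA (interaction log2FC 1.01, edgeR adjusted p = 5.7e-06). Ccng2 (interaction log2FC 0.34, edgeR adjusted p = 0.18) and Fbxo32 (-0.05, edgeR adjusted p = 0.91), also FOXO targets, fell with both siRNAs and were not called. Bcl6 was repressed more with Lap2 siRNA (-0.73), and Irs2 was induced less (-0.70).

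Genes with stronger repression were in most cases not called lower by serum with control siRNA. Their median serum response was a log2FC of 0.07 with control siRNA and -0.57 with Lap2 siRNA. With control siRNA 34 of the 466 were called lower by serum, where 13.9% of all genes were. The class included genes of dividing cells. The median interaction of 21 DNA replication and mitosis genes was -0.79. A lower response was called for 20, beside 6.51% of all genes, and a higher one for 0, beside 7.09%. Of these, 9 were in the stronger repression class, 10 were reversed and Mcm4 was weaker induction. All 20 were called higher with Lap2 siRNA in 0.3% FBS, where 17.8% of all genes were, and 10 of the 21 were called higher in 15% FBS, where 11.4% of all genes were. Serum lowered 19 of the 21 with Lap2 siRNA, beside 14.9% of all genes. With control siRNA 11 were called higher, beside 15.6% of all genes, and 0 lower, beside 13.9%. Scaling to total counts lowers the median serum response of all tested genes by 0.21 with control siRNA. Under it 4 members were higher and 4 lower with control siRNA. The reversal of single members therefore depends on the scaling, while 20 interactions were called under every scaling.

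Mki67, the proliferation marker gene, had 2366, 2150 and 2189 normalized counts in starved and 2354, 2396 and 2221 in stimulated control siRNA cells, against 5054, 6391 and 6561 and 3055, 3056 and 2986 with Lap2 siRNA. It was above control in all Lap2 siRNA libraries and most so in starved cells (interaction log2FC -1.04, standard error 0.11, edgeR adjusted p = 8.7e-09). Mcm5, a subunit of the replicative helicase, had 979, 786 and 822 and then 1098, 1083 and 946 with control, and 1825, 1837 and 1798 and then 940, 1116 and 1254 with Lap2 siRNA (interaction log2FC -1.0, standard error 0.13, edgeR adjusted p = 5.3e-07). For Mcm5 the stimulated groups overlapped. E2f1 was the member not called (-0.14, edgeR adjusted p = 0.5).

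Ribosome biogenesis genes had a lower response for 9 of 19, beside 6.51% of all genes, and a higher one for 0. The median interaction was -0.30, and -0.45 without Lap2 siRNA replicate 3 in 15% FBS. In 0.3% FBS 18 were called higher with Lap2 siRNA, beside 17.8% of all genes. Ddx21, a nucleolar helicase gene, had 1572 ± 133 and 3629 ± 48 normalized counts (SD, n = 3) with control and 3301 ± 172 and 4680 ± 450 with Lap2 siRNA (interaction log2FC -0.70, edgeR adjusted p = 4.5e-06). Among 14 nuclear lamina and LEM-domain genes 5 had a lower response, beside 6.51% of all genes, and 0 a higher, beside 7.09%. The 5 were Tmpo, Lmnb1, Lbr, Syne1 and Syne2, and Tmpo is the target of the siRNA. Without Lap2 siRNA replicate 1 in 0.3% FBS 8 were lower. The call of Syne1 was lost in 9 of the 12 fits that leave out 1 library. Lmna, which encodes lamins A and C, was not called (-0.17, edgeR adjusted p = 0.2), but was without Lap2 siRNA replicate 1 in 0.3% FBS (-0.2, edgeR adjusted p = 0.03).

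The stronger repression genes with the largest differences were Slc40a1, which encodes the iron exporter ferroportin, the guanine nucleotide exchange factor gene Ngef, the T-type calcium channel gene Cacna1i and Megf10. Slc40a1 had 37.3, 35.5 and 19.4 normalized counts in starved and 51.5, 29.7 and 43.5 in stimulated control siRNA cells, against 310, 315 and 301 and 90.1, 103 and 162 with Lap2 siRNA (interaction log2FC -1.79, standard error 0.32, edgeR adjusted p = 0.00011). All Lap2 siRNA libraries were above all control ones. Ngef (interaction log2FC -1.75), Cacna1i (-1.5) and Megf10 (-1.44) were more than 2.2-fold higher with Lap2 siRNA in 0.3% FBS, and in 15% FBS only Ngef of the 3 was called, lower with Lap2 siRNA. Neu2 overlaps Ngef on the opposite strand.

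Serum acted in opposite directions with the 2 siRNAs for 260 genes, of which 142 rose with control siRNA and fell with Lap2 siRNA and 118 did the reverse. Dock8, a Cdc42 exchange factor gene, had 44.2, 42.5 and 22.7 normalized counts in starved and 95.8, 95.9 and 62.5 in stimulated control siRNA cells, against 281, 305 and 386 and 107, 104 and 221 with Lap2 siRNA. Its Lap2 siRNA libraries were above control in both conditions (interaction log2FC -2.36, standard error 0.34, edgeR adjusted p = 4.3e-06). Nav2 (interaction log2FC -1.81) and the ETS factor gene Etv1 (-1.52) were 3.51-fold and 2.83-fold higher with Lap2 siRNA in 0.3% FBS and were not called in 15% FBS (edgeR adjusted p = 0.99 and 0.97). Prl2c3 (-1.64) has near-identical relatives in its gene family, so its counts are uncertain.

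In the other direction, Wnt9a (interaction log2FC 1.5) and the cell cycle regulator gene Rgcc (1.56) fell with control and rose with Lap2 siRNA. Bcl3, an atypical IkappaB gene of the NF-kappaB list, had 527, 547 and 504 normalized counts in starved and 390, 400 and 391 in stimulated control siRNA cells, against 227, 231 and 225 and 593, 613 and 541 with Lap2 siRNA (interaction log2FC 1.77, standard error 0.13, edgeR adjusted p = 6.7e-12). It was lower than control before serum and higher after it in every library. Cxcl12, a chemokine gene of stromal cells, had 4674, 5473 and 5156 and then 3610, 3582 and 3893 with control, and 1497, 1508 and 1817 and then 3521, 3015 and 2813 with Lap2 siRNA (interaction log2FC 1.42, edgeR adjusted p = 4.7e-11). Fn1, which encodes fibronectin, instead rose with control siRNA, from 152224 ± 8585 to 201662 ± 7154 (SD, n = 3). With Lap2 siRNA it fell from 197355 ± 29898 to 171760 ± 6101, with a wide spread between the starved libraries (interaction log2FC -0.61, edgeR adjusted p = 6.6e-05).

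Interferon-stimulated genes had 3 higher responses (Isg15, Irf7 and Irf1) and 0 lower of 13 tested, beside 7.09% and 6.51% of all genes. Without Lap2 siRNA replicate 3 in 15% FBS 5 were higher. The median interaction was 1.09, and it includes genes with few counts. Only 8 members had a count above 1 in every library, and their median was 0.91. Ifit2 (-0.32) went the other way and was not called. The call of Irf7 was lost in 4 of the 12 fits that leave out 1 library. Isg15, a ubiquitin-like protein gene, had 101 ± 15 and 80.4 ± 13.4 normalized counts with control and 46 ± 14.3 and 99 ± 8.36 with Lap2 siRNA.

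**Figure D5:**
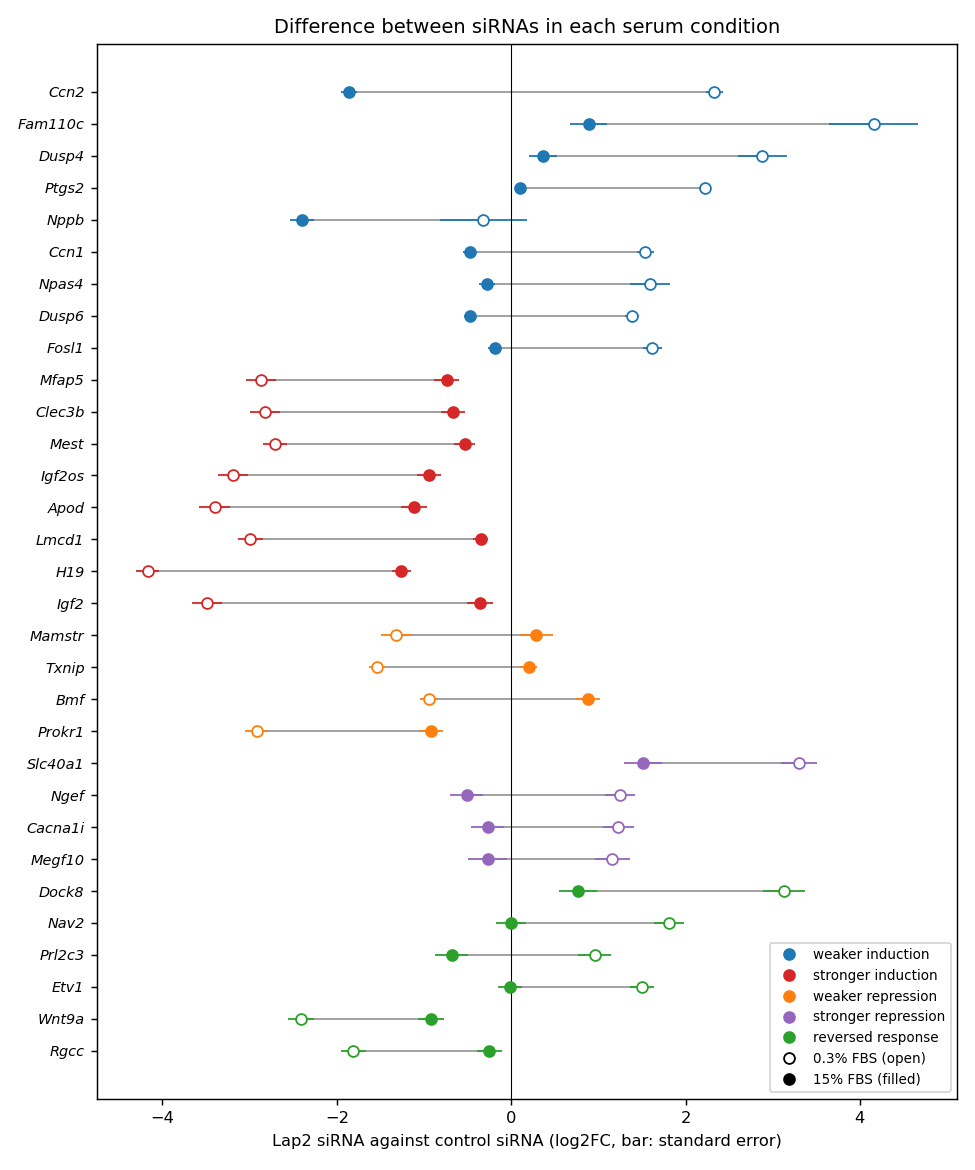
Log2FC of Lap2 over control siRNA in 0.3% FBS (open) and 15% FBS (filled) for genes named by class, with standard errors from 3 libraries per group. The distance between the 2 points of a gene is its interaction; for all of those plotted but Nppb the open point lies farther from 0 than the filled one.

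Over the called genes, the siRNAs differed more in starved cells. The absolute log2FC of Lap2 over control siRNA was larger in 0.3% than in 15% FBS for 931 of the 1216 genes with a lower response (76.6%) and for 1056 of the 1324 with a higher one (79.8%), beside 61.7% of all tested genes. By class it was 67.4% for weaker induction, 88% for stronger induction, 62.8% for weaker repression, 83% for stronger repression and 89.6% for reversed genes. In a principal component analysis of 10449 genes, component 2 (25.8% of the variance) ran from -28.34 to -24.72 in starved control and from 22.65 to 24.83 in starved Lap2 siRNA libraries, and from -12.64 to -11.64 and from 11.57 to 19.39 in stimulated ones. Component 1 (63.8%) separated the serum conditions.

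Protein-coding genes made up 94.6% to 96.5% of each class and 74.5% of the tested genes, and the median normalized count was 582 to 1360 by class and 198 over all. Median gene span was 28.4 kb for weaker induction, 28 kb for stronger induction, 27.6 kb for reversed and 24.3 kb for stronger repression genes, against 15.6 kb for weaker repression and 15.3 kb for all tested genes. Abundance enters the test itself, and its part in the other features was not tested. Genes that overlap another on the opposite strand made up 28.3% to 30.4% of each class and 31.5% of all tested genes.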

How the data were processed

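Total RNA of 12 NIH 3T3 samples was depleted of ribosomal RNA and sequenced as directional libraries. The authors aligned reads to mm10 with TopHat2 and deposited raw HTSeq counts per gene, with 1 table per sample. The strand setting of the counting and the authors' tool versions are not given in the sources used here.

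Counts were joined by gene ID, and 49412 of 49671 IDs (99.5%) had a symbol and 45177 (91.0%) the same coordinates in GENCODE M21. Genes were kept where 3 or more libraries had counts above 1, and the 18668 that passed were fitted in edgeR 4.0.16 (R 4.3.3) with TMM factors and glmQLFit, 1 coefficient per group, and no block. The interaction and its 4 simple contrasts were tested by glmQLFTest, two-sided, with Benjamini-Hochberg adjustment over all genes and a threshold of 0.05. Each count was scaled by its library's TMM effective size to the mean of these sizes to give normalized counts, and errors given with n are SD over 3 libraries. Standard errors of log2FC are its absolute value over the square root of the F statistic. Weaker and stronger induction or repression were assigned from the called responses, and a gene was reversed where both were called with opposite signs.

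Named genes were, by class, those with the largest absolute interaction for averages of 100 normalized counts or more (10, 8, 4 and 4 genes), and for reversed genes the 6 with the largest smaller response. Genes named by the study and members of 15 gene lists were added, while Gm and Rik symbols and pseudogenes were left out of the class rule. Some genes these rules select are not reported here. The members, the lists and this rule were chosen with earlier results of these data known. Alternatives were DESeq2 1.42.0, total count and upper quartile scaling, other filters, other thresholds, a replicate block and leaving out each library. On simulated counts for the interaction, with 200 of 18103 genes changed by 1 on the log2 scale, edgeR recovered 98.5% with 11 false calls and DESeq2 98% with 19. These counts had a common mean per gene, without other serum or siRNA effects. Only abundant genes were changed, and only in the stimulated Lap2 siRNA libraries, so the figures may not carry over to the real counts. Depth was 18026298 to 26265253 counts per library.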

Additional observations from a re-analysis of the deposited data

Results flagged for a closer look

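Each count of genes below is a difference between the siRNAs in the response to serum, and was listed because the interaction itself was tested. The interaction was called for 2540 genes, with a lower response in 1216 and a higher one in 1324. By kind, 579 genes had weaker induction, 743 stronger induction, 427 weaker repression, 466 stronger repression and 260 a reversed response. Tmpo, the siRNA target, had an interaction log2FC of -0.79, so that its mRNA was further below control in 15% FBS. The part of that difference in the other counts was not tested.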

How the results depend on the processing

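The number of genes with a called interaction was 2714 with DESeq2, 2501 with total counts, 2531 with upper quartiles and 2553 with a replicate block. The same-numbered libraries did not deviate together (correlations from -0.122 to 0.099), and 3 of 12 libraries were closest to their own number, so the numbers were not taken as pairs. Of the calls with the replicate block, 2464 (97%) were shared. Scaling to total counts gave 307 genes with stronger induction, 653 with weaker repression and 785 with stronger repression. At an adjusted p under 0.01, 1514 genes were called, 756 lower and 758 higher, with 368 weaker induction, 466 stronger induction, 217 weaker repression, 275 stronger repression and 132 reversed. At an adjusted p under 0.05 with an absolute log2FC over 1 there were 439 genes, 218 lower and 221 higher, with 98, 125, 51, 64 and 80 in the same order of classes.

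Leaving out each library in turn gave 1886 to 3529 calls, 935 to 1973 lower and 852 to 1556 higher. Weaker induction ranged from 464 to 946 genes, stronger induction from 517 to 860, weaker repression from 253 to 470, stronger repression from 334 to 678 and reversed from 189 to 477. Without Lap2 siRNA replicate 1 in 0.3% FBS there were 1973 lower, 946 weaker induction and 477 reversed genes. Without control replicate 2 in 0.3% FBS there were 852 higher and 253 weaker repression genes, and without control replicate 3 in 0.3% FBS 268 weaker repression genes. The cause was not tested. Of 41 genes followed singly, 37 kept their direction and side of the threshold under every setting, the others being Nppb, Egr1, Fos and Gapdh. Gapdh, at -0.20 and not called, was called with DESeq2 (-0.23, DESeq2 adjusted p = 0.02) and without Lap2 siRNA replicate 1 or 2 in 0.3% FBS. The interaction of Fos, -0.04 and not called, ranged from -0.15 to 0.09 and was 0.01, 0.09, 0.02 and 0.03 without Lap2 siRNA replicate 3 in 0.3% FBS, Lap2 siRNA replicate 3 in 15% FBS, control replicate 3 in 0.3% FBS and control replicate 2 in 15% FBS. On increments in place of folds, an alternative with no test, the log2 ratio changed sign for Fam110c (0.62), Dusp4 (0.03), Ptgs2 (0.08), Ier3 (0.04) and Tagln (-1.18). For Fam110c and Dusp4 a stimulated Lap2 siRNA library stood apart from the others, and their increments rest partly on it.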
